A study of Homo sapiens with 8 samples.

Results

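Collagens are secreted or membrane-bound proteins in which three-stranded helices of alpha chains are assembled, and each alpha chain has a gene of its own, named COL with the type and the chain. Type IV collagens form the sheet of the basement membrane, on which epithelial cells rest. Fibrillar collagens form the cable-like fibrils of connective tissue, and type VI collagen forms beaded microfilaments that lie next to basement membranes. The members described here were all protein-coding genes whose symbols have the form COL, number, A, number. They numbered 44 of the 58233 rows of the count table, and every one of them had a row. Of these, 11 encode fibrillar chains, 6 type IV chains and 5 type VI chains.

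RNA was sequenced from MCF10A-H-Ras cells. MCF10A is a breast epithelial line of human origin that does not form tumours, and every group carried the added H-Ras oncogene. Control cells and RBM6-KO1 cells were compared, either untreated or 12 h after 5 Gy of ionizing radiation (IR) from an X-ray source, with 2 libraries (replicates A and B) in each of the 4 groups. RBM6-KO1 is a single clone in which the gene of the RNA-binding protein RBM6 was disrupted with a pair of Cas9 nickase guides, so a property of the clone and an effect of the knockout cannot be told apart. The study names the replicates biological, and the labels do not say how the cultures were separated, so p-values here measure the spread between these libraries.

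Library totals lay between 15355281 and 29832009 counts, of which collagen genes took 0.109% to 0.261%. Levels are given as CPM, counts scaled to library size after TMM normalization over the 8 libraries, and between genes as FPKM, the same values per kilobase of annotated exon. A count of 3, the limit that a count of 0 allows, was worth 0.0966 to 0.204 CPM, which covers counting error only. RBM6 mRNA was at 66.9 and 68.8 CPM in untreated control and 61.5 and 63.2 CPM in untreated RBM6-KO1 libraries, and at 54.5 and 48.9 against 44.01 and 33.9 CPM after IR. It did not pass in either comparison (adjusted p = 0.712 and 0.535 from edgeR), and since an edit need not lower the mRNA, these levels do not check the labels. All 8 basal epithelial markers were at 1 CPM or more in some group, and no leukocyte marker reached 1 CPM. Among 4 markers of luminal hormone-receptor cells, GATA3 and FOXA1 reached 1 CPM in some group. The hormone receptor genes ESR1 and PGR were at or under 0.518 CPM in every library. This list summed to between 13.8 and 22.7 CPM in a library. Endothelial markers reached 1 CPM in some group for 3 of 5 genes, and their list summed to between 4.28 and 12.4 CPM. In untreated RBM6-KO1 cells the basal list moved in both directions, with 3 of 8 markers above 0. The keratin gene KRT14 was higher (0.78, adjusted p = 0.0156 from edgeR, under 2-fold), and the epithelial adhesion gene EPCAM was lower (log2 fold change -1.79, adjusted p = 4.43e-05 from edgeR, untreated). EPCAM was at 19.6 to 26.7 CPM in control and 5.29 to 7.48 CPM in RBM6-KO1 libraries. Between genotypes after IR, the basal list had 1 marker above 0 and 7 below, with a median log2 fold change of -0.42.

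Detected collagen mRNA was mostly that of transmembrane and basement membrane genes, with little of the fibrillar genes. In some group, 22 of the 44 members reached a mean of 1 CPM, among them 5 of 6 type IV genes, 3 of 5 type VI genes and 6 of 11 fibrillar genes. Another 5 genes, COL6A5, COL9A1, COL19A1, COL23A1 and COL26A1, had 0 counts in every library, and 9 more never exceeded 3 counts (COL1A2, COL3A1, COL9A3, COL11A1, COL15A1, COL20A1, COL21A1, COL24A1 and COL25A1). COL1A2 and COL3A1 encode chains found in the main fibrils of connective tissue, and had at most 1 count in a library. Another 8, COL2A1, COL4A3, COL6A6, COL9A2, COL10A1, COL14A1, COL22A1 and COL28A1, had 4 or more counts in some library but stayed under 1 CPM in every group, and COL2A1 was the highest of them with 21 counts.

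Per kilobase of exon, COL17A1, the transmembrane collagen of hemidesmosomes, had the highest level in untreated control cells at 55.6 ± 3.5 FPKM (SD, n = 2 libraries). It was followed by COL4A2 at 24.3 ± 1.8 FPKM and COL6A1 at 13.9 ± 0.62 FPKM. COL4A6, COL4A1, COL7A1 and COL4A5 then followed between 10.2 and 7.32 FPKM. The neighbours COL4A1 and COL7A1, with 8.43 ± 0.20 and 7.40 ± 1.2 FPKM, differed by less than the SD of COL7A1. Of the fibrillar genes COL1A1 was highest, at 1.44 ± 0.22 FPKM, below COL6A3 and COL6A2 at 2.09 ± 0.11 and 2.04 ± 0.41 FPKM. These latter genes differed by less than the spread between their libraries, so untreated control cells held their mRNAs at about the same level per length.

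**Figure D1:**
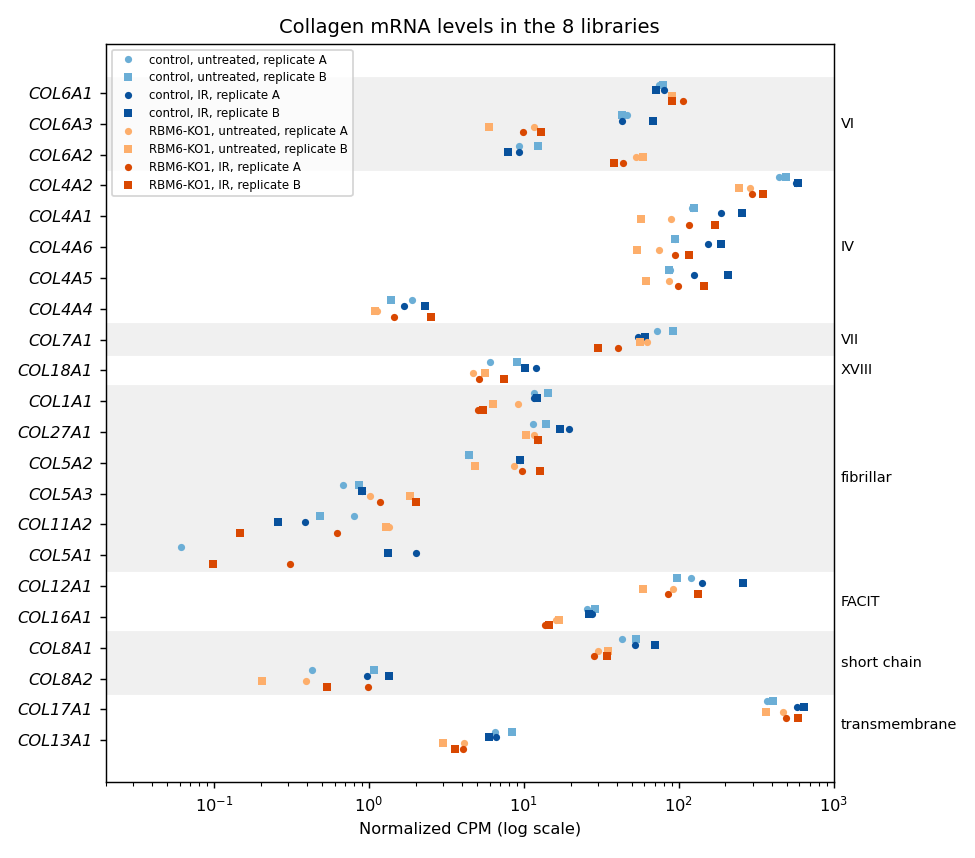
Normalized CPM (log axis) of the 22 collagen genes with a mean of 1 CPM or more in some group, grouped by class, with 1 point per library (circles replicate A, squares replicate B). COL17A1 and COL4A2 lie farthest to the right, and COL6A2 and COL6A3 separate control (blue) from RBM6-KO1 (orange) libraries in opposite directions. The 3 libraries with 0 counts of COL5A1 are not drawn.

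Untreated RBM6-KO1 and control cells were compared first, to ask which collagen mRNAs depend on the genotype without exogenous DNA damage. Of the 44 members, 21 passed the filter on low counts, and 3 of them were called, meaning an adjusted p below 0.05 and a change of 2-fold or more. COL6A2 was higher, and COL6A3 and COL13A1 were lower. The same rule called 3.12% of the 15556 genes tested, 1.16% higher and 1.97% lower. On the adjusted p alone 7 of the 21 passed, 1 higher and 6 lower, beside 6.12% of all genes tested, 2.38% higher and 3.73% lower. The median log2 fold change of the 21 was -0.54, with 14 below 0, and that of all genes tested was 0.01. COL9A2 passed the filter only through the RBM6-KO1 libraries, so it had to be above 0. After IR, 23 members were tested and COL6A2 and COL6A3 were called again, while 1.17% of the 15587 genes tested were called, 0.353% higher and 0.815% lower. On the adjusted p alone the same pair passed, beside 1.21% of all genes, 0.372% higher and 0.84% lower. The count of 2 became 4 with DESeq2, which added COL1A1 and COL5A1, and also 4 without a filter, with the replicate letter as a block and with all 8 libraries in 1 fit. The median of the 23 members was -0.64, with 18 below 0, and that of all genes was 0.02. COL5A1 and COL28A1 passed the filter after IR only through the control libraries, so both had to be below 0.

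The 2 members called in both genotype comparisons were type VI chains with opposite directions. Its chains COL6A1, COL6A2 and COL6A3 are known to join into a heterotrimer, in which the long COL6A3 chain takes the place that COL6A5 or COL6A6 can also fill. COL6A1 and COL6A2 are neighbours on the plus strand of chromosome 21 in GRCh38 (45981770 to 46005050 and 46098112 to 46132848), and COL6A3 lies on the minus strand of chromosome 2 (237324003 to 237414328). No other annotated gene overlaps any of these genes. The promoter windows of COL6A2 and COL6A3, the genes that moved in opposite directions, are shown because they differ in composition. They are RefSeq windows of GRCh38.p14 from 250 bases before to 50 bases after the start site, 5′ to 3′ on the strand of the gene. Capitals mark the letters TATAAA and GGGCGG read on either strand, so CCGCCC marks GGGCGG on the other strand, and no matches overlapped.
COL6A2 (chr21:46097862-46098161, plus strand): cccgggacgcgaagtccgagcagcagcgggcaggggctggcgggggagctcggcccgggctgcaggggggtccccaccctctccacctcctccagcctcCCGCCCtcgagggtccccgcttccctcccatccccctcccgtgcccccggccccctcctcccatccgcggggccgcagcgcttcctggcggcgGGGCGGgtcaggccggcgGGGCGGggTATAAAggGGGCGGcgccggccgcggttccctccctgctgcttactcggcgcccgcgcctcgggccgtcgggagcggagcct
COL6A3 (chr2:237414115-237414414, minus strand): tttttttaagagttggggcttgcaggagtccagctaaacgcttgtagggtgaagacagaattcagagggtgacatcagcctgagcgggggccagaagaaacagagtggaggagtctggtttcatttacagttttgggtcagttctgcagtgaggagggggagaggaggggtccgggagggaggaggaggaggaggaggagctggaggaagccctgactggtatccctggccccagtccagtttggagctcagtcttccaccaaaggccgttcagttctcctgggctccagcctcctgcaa
The COL6A2 window was 79.3% G and C and held 1 TATAAA, at position -32 from the start site, and 4 GGGCGG. The COL6A3 window was 56.3% G and C and held neither. Of the 35116 promoters in the table, 11.5% held TATAAA and 45% held GGGCGG, counted by window, since a gene may have several. The 32 members matched by symbol had 44 windows, of which 8 and 24 held them. These matches are a description of the letters only.

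Without IR, COL6A2 was at 9.33 and 12.4 CPM in control libraries, against 53.3 and 58.8 CPM in RBM6-KO1 libraries. After IR it was at 9.26 and 7.92 CPM in control cells and at 43.7 and 37.9 CPM in RBM6-KO1 cells. All 4 RBM6-KO1 libraries thus lay above all 4 control libraries, with no overlap in either condition. The log2 fold change was 2.35 (SE 0.19, 5.10-fold, adjusted p = 5.17e-07, edgeR quasi-likelihood) untreated and 2.26 (SE 0.21, adjusted p = 0.00779 from edgeR) after IR. Leaving out any library gave 2.18 or more in the untreated comparison and 2.15 or more after IR.

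COL6A3 moved the other way. Its levels were 46.6 and 43.2 CPM in untreated control cells and 11.7 and 5.92 CPM in untreated RBM6-KO1 cells. After IR they were 43.3 and 67.8 CPM in control cells and 9.91 and 12.9 CPM in RBM6-KO1 cells. Again the genotypes did not overlap, although replicate B of untreated RBM6-KO1 cells had the lowest level of the 8 libraries and replicate B of irradiated control cells the highest. The log2 fold change was -2.34 (SE 0.25, 5.08-fold, adjusted p = 1.14e-05 from edgeR) untreated and -2.28 (SE 0.28, adjusted p = 0.0151 from edgeR) after IR. With the first of these libraries left out the untreated value was -1.94, and with the second left out the value after IR was -1.91, and both stayed called.

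COL6A1, the third chain, had between 71.5 and 79.96 CPM in the 4 control libraries and between 88.9 and 106 CPM in the 4 RBM6-KO1 libraries, so the genotypes did not overlap. The difference did not pass in either comparison (log2 fold change 0.21, SE 0.14, adjusted p = 0.484 untreated, and 0.38, SE 0.17, adjusted p = 0.457 after IR, both from edgeR). COL6A5 had 0 counts in every library, and COL6A6 had at most 5. Summed over the class, type VI mRNA (mean ± SD, n = 2) was 133 ± 2.98 CPM in control and 155 ± 1.24 CPM in RBM6-KO1 cells without IR, and 139.9 ± 10.4 and 150.4 ± 13.4 CPM after IR. The opposite changes of its chains did not show in this sum.

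**Figure D2:**
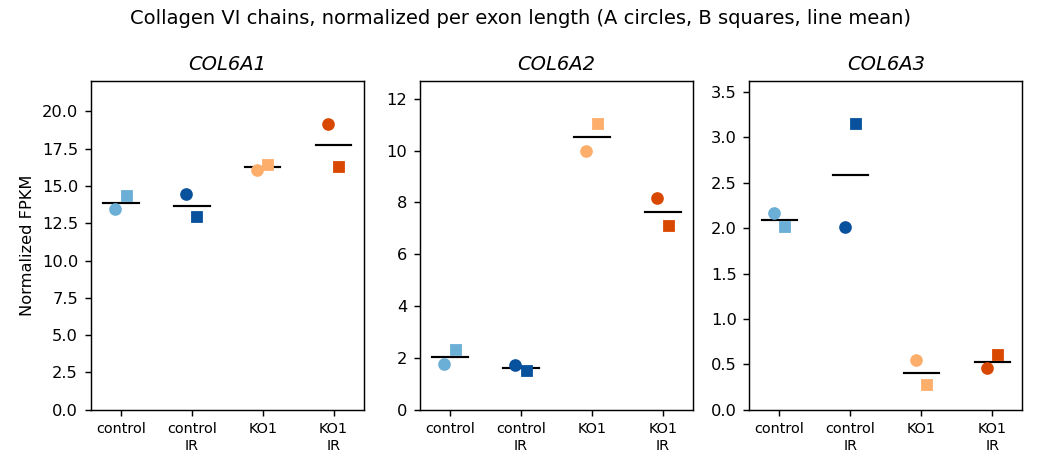
Normalized FPKM of the type VI collagen genes in each library (linear axes from 0, circles replicate A, squares replicate B, black lines group means of 2 libraries). COL6A2 rose from 2.04 to 10.5 FPKM and COL6A3 fell from 2.09 to 0.410 FPKM between untreated control and RBM6-KO1 cells, while COL6A1 was at 13.9 and 16.2 FPKM.

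Per exon length, the balance of the chains differed between genotypes. The ratio of COL6A2 to COL6A3 in control libraries was 0.808 and 1.16 untreated and 0.862 and 0.471 after IR. In RBM6-KO1 libraries it was 18.4 and 40.1 untreated and 17.8 and 11.9 after IR. COL6A2 mRNA was thus in excess in every RBM6-KO1 library and in 1 of the 4 control libraries. The geometric mean ratio differed 25.3-fold between genotypes. The ratio of COL6A2 to COL6A1 ran from 0.115 to 0.162 in control and from 0.427 to 0.671 in RBM6-KO1 libraries, a 4.04-fold difference. That of COL6A3 to COL6A1 ran from 0.139 to 0.244 in control and from 0.0167 to 0.0368 in RBM6-KO1 libraries, which is 6.26-fold lower. These ratios restate the levels of the chains, which already separated the genotypes, so they are given as a description with no test. COL6A3 mRNA was thus well below both partners in RBM6-KO1 cells.

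**Figure D3:**
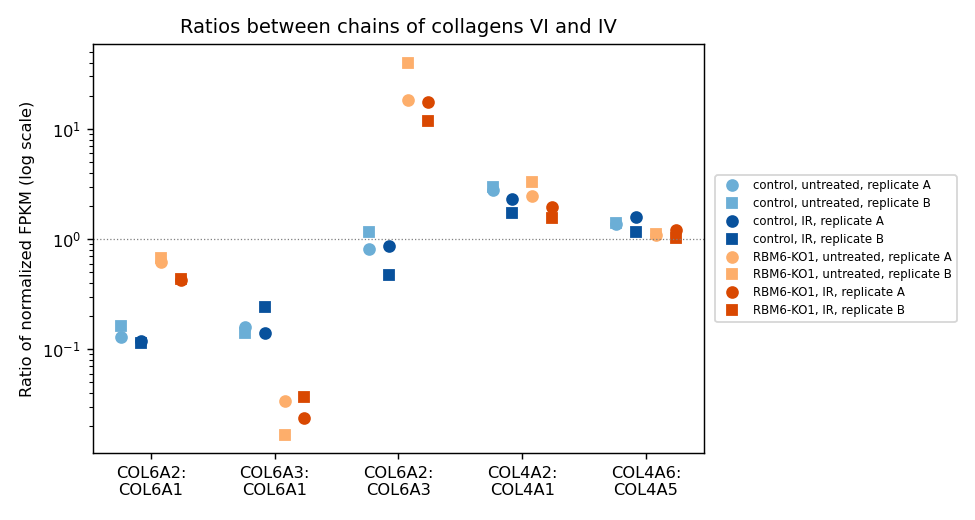
Ratios of normalized FPKM (log axis) between chains of one collagen type in each of the 8 libraries (circles replicate A, squares replicate B, dotted line at 1). The 3 type VI ratios separate control from RBM6-KO1 libraries without overlap, while the COL4A2 to COL4A1 ratio runs from 1.72 to 2.98 in control and from 1.55 to 3.28 in RBM6-KO1 libraries.

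Of the 6 type IV genes of the basement membrane 5 were tested, and COL4A1, COL4A2 and COL4A6 were lower in untreated RBM6-KO1 cells, by less than 2-fold. COL4A1 and COL4A2 encode the chains found in almost all basement membranes, and COL4A5 and COL4A6 encode chains of a more restricted network found under several epithelia. COL4A2 was at 444 and 492 CPM in untreated control cells and at 289 and 244 CPM in untreated RBM6-KO1 cells (log2 fold change -0.82, SE 0.14, adjusted p = 0.00152 from edgeR). COL4A1 was at 122 and 126 against 89.3 and 56.7 CPM (log2 fold change -0.77, SE 0.18, adjusted p = 0.0148 from edgeR). COL4A6 was at 94.2 and 94.8 against 74.0 and 53.4 CPM (log2 fold change -0.58, SE 0.17, adjusted p = 0.0462 from edgeR). In these genes replicate B of RBM6-KO1 cells was the lower library, and without it the 3 log2 fold changes were -0.69, -0.47 and -0.35. With any library left out, COL4A1 and COL4A6 no longer passed (adjusted p from 0.0933 to 0.643 from edgeR), and COL4A2 passed only without replicate A of RBM6-KO1 cells. COL4A5, at 87.2 and 86.5 against 86.1 and 61.7 CPM, did not pass (log2 fold change -0.24, SE 0.17, adjusted p = 0.499 from edgeR). Neither did COL4A4, a chain best known from kidney basement membranes, at 1.90 and 1.39 against 1.13 and 1.09 CPM (adjusted p = 0.547 from edgeR).

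After IR the 5 tested type IV genes again had log2 fold changes below 0, from -0.83 for COL4A2 to -0.03 for COL4A4, and none passed the adjusted p (COL4A2, SE 0.15, adjusted p = 0.0597 from edgeR and 0.00341 from DESeq2's Wald test). The groups of COL4A2 did not overlap, with 575 and 584 CPM in control cells and 299 and 350.1 CPM in RBM6-KO1 cells. Without IR, type IV mRNA (mean ± SD, n = 2) summed to 775 ± 36.6 CPM in control and 479 ± 86.8 CPM in RBM6-KO1 cells, and to 1143 ± 138 and 698 ± 125 CPM after IR. Of all collagen counts, without IR, type IV took 48.2% and 48.1% in control libraries against 38.3% and 36.6% in RBM6-KO1 libraries. Transmembrane collagens, of which COL17A1 was the most abundant, took 24.3% and 24.8% against 33.8% and 32.2%.

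The type IV genes lie in head-to-head pairs, which share a stretch of promoter between them. The RefSeq promoter windows of COL4A1 and COL4A2 overlapped by 226 bases, with start sites 127 bases apart on opposite strands, and those of COL4A3 and COL4A4 by 82 bases. The COL4A5 window overlapped the COL4A6 window at chrX:108439409-108439708 by 121 bases. It did not overlap the other COL4A6 window, at chrX:108438373-108438672. The COL4A1 window is shown because most of it belongs to both genes of the pair that passed.
COL4A1 (chr13:110307108-110307407, minus strand): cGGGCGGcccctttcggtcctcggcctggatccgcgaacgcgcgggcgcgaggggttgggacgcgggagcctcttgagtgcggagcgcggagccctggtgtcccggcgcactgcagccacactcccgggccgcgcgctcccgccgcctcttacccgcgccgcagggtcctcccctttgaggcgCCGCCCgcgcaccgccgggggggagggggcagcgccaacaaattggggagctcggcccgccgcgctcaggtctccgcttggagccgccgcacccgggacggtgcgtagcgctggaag
With the same motifs in capitals, it held 2 GGGCGG and no TATAAA, and was 76.7% G and C. Over all 8 libraries, the chain ratios within the pairs overlapped between genotypes. The COL4A2 to COL4A1 ratio differed 1.08-fold (two-sided exact permutation test, 4 against 4 libraries with treated and untreated pooled, p = 0.714). The mean of this ratio was lower after IR in both genotypes, at 2.88 and 2.03 in control and 2.87 and 1.76 in RBM6-KO1 cells. The permutation did not keep the treatments apart, so this fall is part of the spread it measured. The COL4A6 to COL4A5 ratio differed 1.24-fold (same exact test, p = 0.0571, not adjusted for the number of ratios). Without IR the latter was 1.38 and 1.40 in control and 1.10 and 1.11 in RBM6-KO1 libraries, with no overlap, and after IR it was 1.58 and 1.16 against 1.22 and 1.02. The annotated bodies of COL4A1 and COL4A2 overlap by 1346 bases on opposite strands. The strand setting of the counting is not given in the sources used here, so reads from there cannot be told apart.

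None of the fibrillar genes was called by edgeR in either pairwise genotype comparison, while DESeq2 called COL1A1 and COL5A1 after IR. COL1A1, a chain of the main fibrils of connective tissue, was at 11.5 and 14.4 CPM in untreated control cells and at 9.23 and 6.33 CPM in untreated RBM6-KO1 cells (log2 fold change -0.74, SE 0.24, adjusted p = 0.0864 from edgeR). After IR it was at 11.6 and 12.1 against 5.06 and 5.44 CPM (log2 fold change -1.17, SE 0.22, adjusted p = 0.0612 from edgeR and 0.0132 from DESeq2's Wald test). The genotypes did not overlap in either condition, and with both conditions in one fit COL1A1 passed (log2 fold change -0.95, SE 0.17, adjusted p = 0.00280 from edgeR). COL27A1, a fibrillar chain with a short helix, was at 11.5 and 13.9 against 11.5 and 10.3 CPM untreated and 19.6 and 17.1 against 12.4 and 12.3 CPM after IR. It did not pass in either comparison (adjusted p = 0.649 and 0.333 from edgeR).

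COL5A2 and COL5A3, chains of the type V collagen that regulates the width of type I fibrils, had log2 fold changes above 0 that did not pass (0.62 and 0.85 untreated, adjusted p = 0.275 and 0.396 from edgeR). The untreated RBM6-KO1 libraries of COL5A2 lay far apart, at 8.67 and 4.83 CPM, beside 4.36 and 4.40 CPM in control cells. COL5A3 was at 0.675 and 0.858 against 1.013 and 1.84 CPM untreated and at 0.906 and 0.901 against 1.19 and 2.01 CPM after IR, with the RBM6-KO1 libraries above the control libraries each time. COL11A2, a minor chain of cartilage fibrils, was at 0.798 and 0.483 against 1.35 and 1.29 CPM and did not pass (log2 fold change 1.04, SE 0.50, adjusted p = 0.280 from edgeR). Both RBM6-KO1 libraries but only replicate A of control cells reached the filter limit, so the filter favoured a COL11A2 value above 0. In irradiated libraries it was at 0.388 and 0.258 against 0.619 and 0.147 CPM, where the genotypes overlapped. Summed over the class, fibrillar mRNA (mean ± SD, n = 2) without IR was 31.7 ± 3.54 CPM in control and 28.5 ± 5.12 CPM in RBM6-KO1 cells, a difference smaller than the spread between libraries. After IR the sums were 43.1 ± 1.91 and 31.4 ± 2.22 CPM. Fibroblast markers were read beside these genes. Of 10 such markers, COL1A1 included, 5 reached 1 CPM in some group. Their sum without IR ran from 86.7 to 92.0 CPM in control and from 121 to 158 CPM in RBM6-KO1 libraries, and after IR from 100.2 to 122 and from 177 to 216 CPM. Most of this sum was DCN, which was higher in RBM6-KO1 cells, while FAP was lower and POSTN had 0 counts in every RBM6-KO1 library. Among the 10 markers, COL1A2, COL3A1 and THY1 had at most 2 counts in any library. The part of such cells in the COL1A1 levels was not tested.

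**Figure D4:**
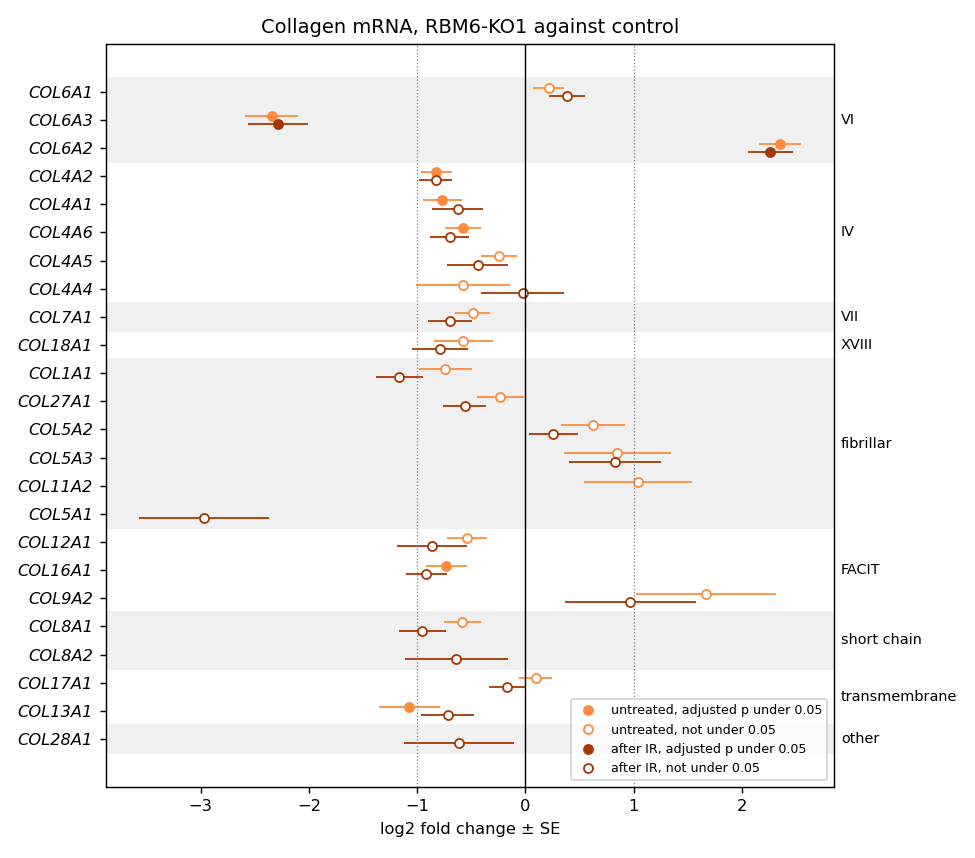
Log2 fold change (± SE) of RBM6-KO1 against control cells for the collagen genes tested, untreated (light) and after IR (dark), grouped by class, with filled points for an adjusted p under 0.05 and dotted lines at 2-fold. COL6A2 and COL6A3 lie beyond 2 on opposite sides of 0, and all type IV points lie below 0.

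Among the other classes, COL13A1 was called in untreated cells. COL13A1 encodes a transmembrane collagen of cell adhesion sites. Its levels were 6.51 and 8.42 CPM in control cells and at 4.11 and 2.99 CPM in RBM6-KO1 cells (log2 fold change -1.08, SE 0.28, adjusted p = 0.0281 from edgeR). This call was lost with DESeq2 (adjusted p = 0.0907), with all 8 libraries in 1 fit (adjusted p = 0.0507 from edgeR) and without any single one of the 4 libraries. After IR it was at 6.604 and 5.99 against 4.02 and 3.58 CPM (log2 fold change -0.72, SE 0.25, adjusted p = 0.320 from edgeR). COL17A1, the other transmembrane collagen detected, was at 371 and 406 against 473 and 363 CPM untreated, and its groups overlapped (log2 fold change 0.10, SE 0.15, adjusted p = 0.821 from edgeR).

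COL16A1 and COL12A1 belong to the fibril-associated collagens, which decorate the surface of fibrils. COL16A1 fell from 25.5 and 28.8 CPM in untreated control cells to 16.2 and 16.8 CPM in untreated RBM6-KO1 cells (log2 fold change -0.73, SE 0.19, adjusted p = 0.0247 from edgeR), a difference that missed the threshold with any library left out (adjusted p from 0.113 to 0.352). It was at 27.4 and 26.2 against 13.8 and 14.4 CPM after IR, where it did not pass (log2 fold change -0.92, SE 0.19, adjusted p = 0.0862 from edgeR and 0.0148 from DESeq2). COL12A1 was at 119 and 97.9 against 91.2 and 59.1 CPM untreated and did not pass (adjusted p = 0.102 from edgeR). Irradiated libraries were at 141 and 259 against 85.8 and 134 CPM (adjusted p = 0.365 from edgeR). COL8A1, a short-chain collagen that forms hexagonal networks, was at 43.2 and 52.9 against 30.1 and 34.8 CPM untreated and 51.8 and 69.9 against 28.2 and 34.5 CPM after IR, and it missed the threshold in both (adjusted p = 0.0518 and 0.110 from edgeR). COL7A1, the anchoring fibril collagen that ties the basement membrane to the tissue beneath, was at 72.9 and 91.9 against 62.6 and 55.9 CPM untreated (adjusted p = 0.0848 from edgeR). COL18A1, a basement membrane collagen that is the source of endostatin, was at 6.08 and 9.07 against 4.67 and 5.65 CPM (adjusted p = 0.268 from edgeR) and at 11.9 and 10.1 against 5.16 and 7.49 CPM after IR (adjusted p = 0.288 from edgeR), and its annotated body overlaps SLC19A1 by 20149 bases. Among scarce members, COL9A2, a chain of cartilage fibril surfaces, was at 0.246 and 0.268 against 0.619 and 1.09 CPM untreated (log2 fold change 1.67, SE 0.64, adjusted p = 0.159 from edgeR). COL9A2 passed the filter there only through the RBM6-KO1 libraries, so its value had to be above 0 and gives no support beyond the counts. COL8A2, a partner of COL8A1, was at 0.430 and 1.07 against 0.394 and 0.204 CPM untreated and at 0.971 and 1.35 against 0.980 and 0.539 CPM after IR, and its genotypes overlapped after IR. COL8A2 and COL28A1 were tested between genotypes after IR alone and did not pass (log2 fold change -0.64 and -0.61, adjusted p = 0.741 and 0.784 from edgeR). COL28A1 passed the filter on low counts only through the control libraries, so its value had to be below 0.

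With all 8 libraries in 1 fit and treatment as a term, 24 members were tested. The adjusted p from edgeR passed for 13 of them, 1 higher and 12 lower, beside 10.7% of all 16549 genes tested, 4.16% higher and 6.5% lower. Of these, COL6A2 (log2 fold change 2.31), COL6A3 (-2.31) and COL5A1 also passed 2-fold, beside 3.72% of all genes, 1.35% higher and 2.37% lower. The COL5A1 value rests on 8 counts in RBM6-KO1 libraries and depends on the prior count. COL5A1 passed the filter on low counts only through the irradiated control libraries, so its call here gives no support beyond the counts. The lower genes between 1 and 2-fold were COL1A1, COL4A1, COL4A2, COL4A6, COL7A1, COL8A1, COL12A1, COL13A1, COL16A1 and COL18A1. They span fibrillar, basement membrane, anchoring, short-chain, fibril-associated and transmembrane classes, and their log2 fold changes ran from -0.59 for COL7A1 to -0.95 for COL1A1. No library entered both pairwise genotype comparisons, but both used the same RBM6-KO1 clone. Of the 20 members tested in both, 14 were below 0 in both, 5 above 0 in both, and COL17A1 changed sign. COL9A2 is among the 5, and the filter fixed its sign in untreated cells. The share of all genes with the same sign in both is not given here, so these counts are a description only.

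Base composition moved with these values. Log2 fold changes of untreated RBM6-KO1 against control cells fell with the GC content of the gene over 15444 genes (Spearman's rho = -0.293, a description across genes in the same libraries), and after IR likewise (rho = -0.315 over 15484 genes). Replicates of the same group also differed along GC content. For replicate B against A, rho was 0.419 in untreated and -0.421 in irradiated control cells. It was 0.167 in untreated and -0.254 in irradiated RBM6-KO1 cells. Whether the trend goes with the genotype or with single libraries was not tested. The collagens tested in untreated cells had a median GC content of 61.3%, against 47.8% for all genes. After trends with base composition, length and abundance were removed, the median of the 21 collagens was -0.31, and 14 were still below 0. After IR it was -0.49, with 17 of 23 below 0, including COL5A1 and COL28A1, whose sign the filter on low counts fixed. COL6A2 was then 2.60 and COL6A3 -2.30 in untreated cells, and COL4A2 was -0.70, COL4A1 -0.68 and COL16A1 -0.53.

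The response to 5 Gy of IR was compared within each genotype. CDKN1A, an arrest gene induced by p53, rose in both genotypes (log2 fold change 1.80, adjusted p = 0.000536 in control cells, and 2.02, adjusted p = 0.000510 in RBM6-KO1 cells, both from edgeR). In control cells 21 collagens were tested and 2, COL5A1 and COL5A2, were called, both higher, while the rule called 3.59% of the 15412 genes tested, 1.68% higher and 1.91% lower. On the adjusted p alone 6 passed, all higher, beside 5.72% of all genes, 2.81% higher and 2.91% lower. The median log2 fold change of the 21 was 0.33, with 15 above 0, and that of all genes was 0.02. These counts include COL5A1, which passed the filter only through the irradiated libraries and so had to be higher. In RBM6-KO1 cells none of the 21 collagens tested was called, either by edgeR or by DESeq2, while edgeR called 3.11% of the 15598 genes tested, 1.13% higher and 1.97% lower. At an unadjusted p under 0.05 there were 8, and COL7A1 passed the adjusted p alone, beside 5.67% of all genes, 2.44% higher and 3.23% lower. The median of the 21 was 0.17, with 14 above 0, and that of all genes was -0.01. Log2 fold changes for IR rose with exon length (Spearman's rho = 0.288 in control and 0.271 in RBM6-KO1 cells) and fell with GC content (rho = -0.264 and -0.237). Replicates of a group differed along length too. For replicate B against A, rho was 0.389 in irradiated control and 0.338 in irradiated RBM6-KO1 cells. Untreated cells had -0.182 and -0.228. With trends in composition, length and abundance removed, the medians of the tested collagens were 0.51 and 0.24, with 4 and 7 below 0. In control cells COL5A2 was then 0.84, under 2-fold, COL4A1, COL4A5 and COL4A6 were 0.76, 0.76 and 0.78, and COL17A1 was 0.66.

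COL5A1, the most widely used chain of type V collagen, was all but absent without IR. Control libraries had 1 and 0 counts untreated and 31 and 41 counts after IR. RBM6-KO1 libraries had 0 counts untreated, in both replicates, and 6 and 2 counts after IR. The irradiated control libraries were thus the only ones above 1 CPM, at 2.01 and 1.32 CPM. Against the single count of the untreated control cells, the 72 counts after IR were a ratio of 54.1 (95% exact interval 9.40 to 2165, counting error only), and the call in control cells had an adjusted p of 0.00591 from edgeR. COL5A1 passed the filter on low counts only through the irradiated libraries, so a tested COL5A1 had to differ, and its call gives no support beyond the counts. The fitted log2 fold change is not given, since it depends on the prior count. In RBM6-KO1 cells the gene was not tested, and 8 counts against 0 were at least 2.18-fold higher, taking the floor of 3 counts over the group. Between irradiated RBM6-KO1 and control cells the log2 fold change was -2.97 (SE 0.60, adjusted p = 0.0817 from edgeR and 0.0417 from DESeq2). There too COL5A1 passed the filter only through the irradiated control libraries, so the test adds no support beyond the counts.

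COL5A2, the partner of COL5A1 in type V collagen, was at 4.36 and 4.40 CPM in untreated control cells and rose to 9.45 and 9.40 CPM after IR (log2 fold change 1.10, SE 0.25, adjusted p = 0.0323 from edgeR). In RBM6-KO1 cells it was at 8.67 and 4.83 CPM before and 9.75 and 12.7 CPM after IR, and did not pass (log2 fold change 0.71, SE 0.29, adjusted p = 0.141 from edgeR). Without any single one of the 4 control libraries the COL5A2 call in control cells was lost. COL5A1 kept its call without replicate A of irradiated control cells and lost it without any other of these libraries, where its adjusted p ran from 0.0655 to 0.185.

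**Figure D5:**
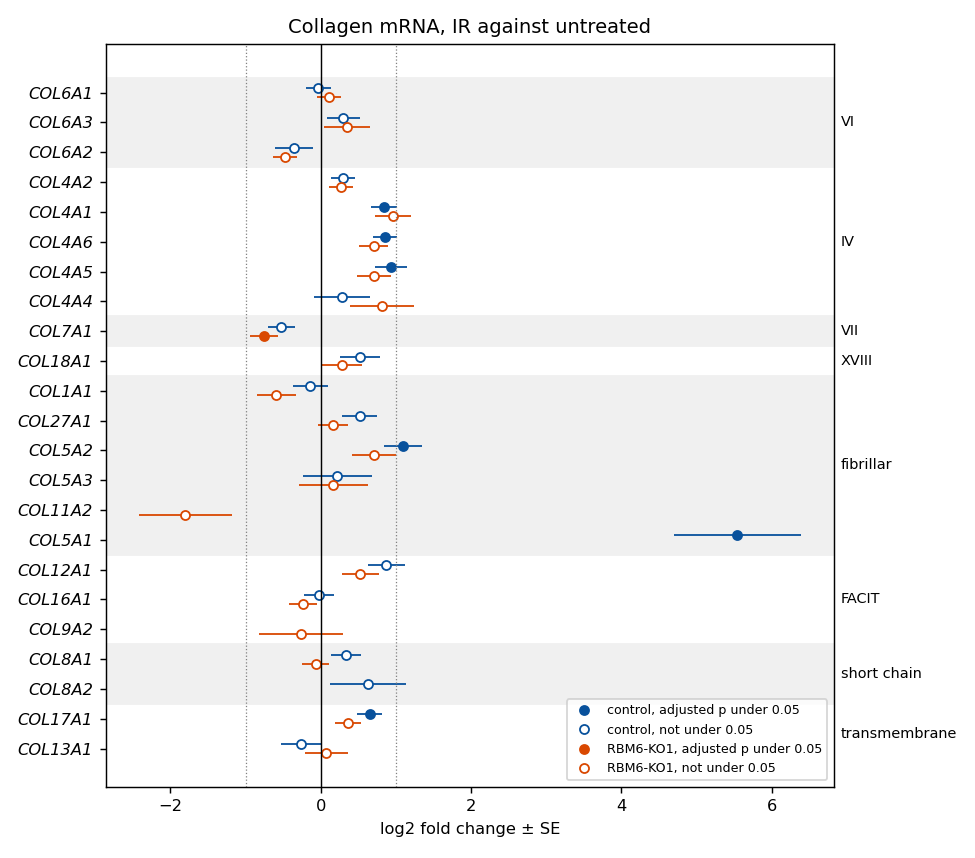
Log2 fold change (± SE) of irradiated against untreated cells for the collagen genes tested, in control (blue) and RBM6-KO1 cells (orange), grouped by class, with filled points for an adjusted p under 0.05 and dotted lines at 2-fold. All type IV points lie above 0 in both genotypes, and COL5A1, tested in control cells alone, lies farthest to the right at a fitted value that depends on the prior count.

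Of the 5 type IV genes tested, COL4A1, COL4A5 and COL4A6 rose after IR in control cells, by less than 2-fold. COL4A1 went from 122 and 126 to 188 and 258 CPM (log2 fold change 0.84, SE 0.18, adjusted p = 0.0239 from edgeR). COL4A5 went from 87.2 and 86.5 to 126 and 207 CPM (log2 fold change 0.93, SE 0.21, adjusted p = 0.0317 from edgeR), and COL4A6 from 94.2 and 94.8 to 155 and 189 CPM (log2 fold change 0.85, SE 0.16, adjusted p = 0.0159 from edgeR). Replicate B of irradiated control cells, the deepest library, was the higher one in each of these genes. With a library left out these genes passed only without replicate A of irradiated control cells, where COL4A1 and COL4A5 also passed 2-fold (log2 fold change 1.06 and 1.26), and without replicate B they were at 0.60 and 0.52. COL4A2, though more abundant than its partner COL4A1, did not pass (log2 fold change 0.30, SE 0.16, adjusted p = 0.257 from edgeR), nor did COL4A4 (0.29, adjusted p = 0.658 from edgeR). In RBM6-KO1 cells the values for COL4A1, COL4A5 and COL4A6 were 0.96, 0.71 and 0.71, with adjusted p from 0.0508 to 0.0790 from edgeR and from 0.00247 to 0.0211 from DESeq2. COL4A1 there was at 89.3 and 56.7 CPM untreated and at 116 and 172 CPM after IR. The irradiated RBM6-KO1 libraries of COL4A5 were at 98.8 and 146 CPM and those of COL4A6 at 94.0 and 117 CPM, above the untreated ones of the same genotype. COL4A4 was at 1.68 and 2.29 CPM in irradiated control and 1.44 and 2.50 CPM in irradiated RBM6-KO1 libraries, and the genotypes overlapped.

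COL17A1 rose in control cells from 371 and 406 to 581 and 645 CPM (log2 fold change 0.65, SE 0.16, adjusted p = 0.0394 from edgeR, and up to 0.234 with a library left out). In RBM6-KO1 cells it was at 473 and 363 CPM untreated and 493 and 592 CPM after IR (adjusted p = 0.199 from edgeR). In the pairwise IR comparisons, COL7A1 was the only member that passed in the lower direction. Its level fell in RBM6-KO1 cells from 62.6 and 55.9 to 40.8 and 30.1 CPM (log2 fold change -0.76, SE 0.19, adjusted p = 0.0485 from edgeR, and up to 0.377 with a library left out), and was at 72.9 and 91.9 against 54.8 and 60.5 CPM in control cells (log2 fold change -0.52, SE 0.18, adjusted p = 0.0984 from edgeR). No type VI gene passed in the pairwise IR comparison of either genotype. COL6A2 had log2 fold changes of -0.35 and -0.47 in control and RBM6-KO1 cells (adjusted p = 0.397 and 0.0954 from edgeR), and COL6A3 had 0.30 and 0.34 (adjusted p = 0.403 and 0.474 from edgeR).

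Whether the response to IR differed between genotypes was tested as an interaction over all 8 libraries. None of the 24 members tested passed with edgeR or with DESeq2, none had an unadjusted p under 0.05, and the lowest unadjusted p was 0.183. Of all 16549 genes tested, 0 passed, and 1.85% had an unadjusted p under 0.05. COL5A1 had an interaction log2 value of -0.54 with an SE of 1.25, so its response is poorly measured at these counts. With genotype as a term and all libraries in 1 fit, 11 members passed the adjusted p for IR, 8 higher and 3 lower, beside 32.9% of all genes tested, 17.3% higher and 15.6% lower. The higher genes were COL4A1, COL4A2, COL4A5, COL4A6, COL5A1, COL5A2, COL12A1 and COL17A1, and the lower genes were COL6A2, COL7A1 and COL11A2. COL5A1 and COL11A2 also passed 2-fold, beside 7.4% of all genes, 2.4% higher and 4.99% lower. COL5A1 entered this fit only through the irradiated control libraries, so its call gives no support beyond the counts. COL11A2 passed on at most 24 counts in a library (log2 fold change -1.44, SE 0.45, adjusted p = 0.0279 from edgeR).

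Lists of the genes that build, cut, bind and anchor collagen were read beside the chains. Of 20 genes that hydroxylate and fold the chains, all were tested and edgeR called none in either pairwise genotype comparison, where 3.12% (untreated) and 1.17% (after IR) of all genes were called. In the fit over all 8 libraries 2 of them were called higher, the prolyl hydroxylase gene P4HA3 and the collagen galactosyltransferase gene COLGALT2 (log2 fold change 1.05 and 1.17, adjusted p = 0.0224 and 0.0313 from edgeR), beside 3.72% of all genes. Of 15 genes that trim propeptides and crosslink the chains 10 were tested in each pairwise genotype comparison, with none called. Of 13 collagen receptor genes, 11 were tested in untreated cells. On the adjusted p 3 were lower and 1 higher, beside 3.73% and 2.38% of all genes. Of these receptors ITGA1 alone passed 2-fold, beside 1.97% of all genes called lower. ITGA1, the alpha chain of a collagen-binding integrin with a preference for type IV collagen, fell in untreated RBM6-KO1 cells from 53.04 and 43.0 to 24.6 and 21.4 CPM (log2 fold change -1.07, SE 0.18, adjusted p = 0.00105 from edgeR). ITGA10, another collagen-binding integrin chain, and DDR1, a receptor tyrosine kinase activated by collagen, fell by less than 2-fold (log2 fold change -0.73 and -0.55, adjusted p = 0.0119 and 0.0285 from edgeR). ANTXR2, an endocytic receptor for type VI collagen, rose by less than 2-fold, from 124 and 137 to 267 and 201 CPM (log2 fold change 0.83, SE 0.16, adjusted p = 0.00291 from edgeR). Of 10 collagen-degrading protease genes 5 were tested in untreated cells, all 5 below 0, and 2 were called lower, beside 1.97% of all genes. These were MMP9, a gelatinase, and FAP, a membrane protease that cuts denatured collagen (log2 fold change -1.49 and -1.59, adjusted p = 0.0237 and 0.00503 from edgeR, and 0.138 and 0.00781 from DESeq2). No receptor or protease gene was called between genotypes after IR by edgeR.

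Of 20 basement membrane and hemidesmosome partner genes 16 were tested. LAMA1, a laminin chain typical of early basement membranes, was called higher in untreated RBM6-KO1 cells (log2 fold change 1.10, SE 0.29, adjusted p = 0.0288 from edgeR and 0.0650 from DESeq2). It was the only partner gene called there, beside 1.16% of all genes called higher. LAMA5, a laminin chain of most epithelial basement membranes, was at 653 and 755 against 412 and 354 CPM untreated (log2 fold change -0.89, SE 0.15, adjusted p = 0.000847 from edgeR). After IR it was called lower (log2 fold change -1.01, SE 0.16, adjusted p = 0.0364 from edgeR), beside 0.815% of all genes called lower. After IR in control cells, 3 of the 11 receptor genes and 2 of the 16 basement membrane partner genes tested were called, all higher, and none of the other lists, beside 1.68% of all genes called higher. They were ITGA2 and ITGB1, the chains of a collagen-binding integrin of epithelium, the proteoglycan genes HSPG2 and CSPG4, and LAMA1, of which CSPG4 missed the threshold with DESeq2 (adjusted p = 0.119). ITGA2 was called in both genotypes, with log2 fold changes of 1.14 (adjusted p = 0.0287 from edgeR) in control and 1.18 (adjusted p = 0.0295 from edgeR) in RBM6-KO1 cells. For HSPG2, which encodes perlecan, it was 1.02 (SE 0.20, adjusted p = 0.0190 from edgeR). As these are bulk libraries, fewer cells that make a given collagen and less of its RNA per cell cannot be told apart in any of these comparisons.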

How the data were processed

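RNA from 8 samples was sequenced after TruSeq mRNA library preparation, and the authors deposited whole-number read counts per Ensembl gene aligned to hg38, without normalization. The submitters' processing notes list STAR and DESeq2 without versions, and the counting tool, annotation and strand setting are not given in the sources used here. Symbols, positions and exon lengths came from GENCODE v44, which holds 57392 of the identifiers and lacks 841. No count column was left out.

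The members, gene lists and tests were chosen with earlier results of these data known. The tests used edgeR 4.0.16 (R 4.3.3), with TMM normalization, filterByExpr, the quasi-likelihood test and Benjamini-Hochberg adjustment over all genes tested. Each pairwise comparison was fitted on its own 4 libraries, and the interaction and the fits with treatment or genotype as a term on all 8. A call needed an adjusted p under 0.05 and 2-fold, and the interaction the adjusted p alone. The SE is the log2 fold change divided by the square root of F. Values in every library are given for members called in a pairwise comparison or at 1 CPM or more in a group, and for COL9A2, which was added after its values were seen. Of the pathway lists, the called genes are named, with ANTXR2, ITGA10, DDR1, P4HA3 and COLGALT2 added after their values were seen. Type IV chain ratios were tested by exact permutation, and 2 against 2 libraries cannot go below p = 0.333. FPKM is normalized CPM per kilobase of exon. Promoters came from RefSeq (GRCh38.p14), where 32 of 44 symbols matched. The steps were tested on simulated counts. The alternatives were DESeq2 1.42.0, other normalizations and filters, a replicate block, all libraries in 1 fit, the adjusted p alone, each library left out in turn (fitted on the other 7), and removal of GC, length and expression trends by splines with 4 degrees of freedom, which gave values with no test.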

Additional observations from a re-analysis of the deposited data

How the results depend on the processing

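No member's log2 fold change that passed the adjusted p changed sign under any alternative, and of the other tested values 11 did under some setting. COL6A2 and COL6A3 stayed called in both genotype comparisons under every alternative that gave a test. In untreated cells the count of called collagens was 3, and 7 with the adjusted p alone. Leaving out each library gave 2 in every case. After IR the count of 2 became 4 without a filter, with DESeq2, with the replicate block and with all 8 libraries in 1 fit, and ran from 2 to 4 as each library was left out (4 without replicate A of irradiated control cells). For IR in control cells the count of 2 became 1 with at least 10 counts in every library, 1 with all 8 libraries in 1 fit and 6 with the adjusted p alone, and ran from 0 to 4 as libraries were left out (4 without replicate A of irradiated control cells, and 0 without any of the other 3 control libraries). In RBM6-KO1 cells the count of 0 became 1 without a filter and 1 with the adjusted p alone, and ran from 0 to 2. With all libraries, 13 instead of 3 members passed for genotype on the adjusted p alone. For IR, 11 instead of 2 did, and 0 with at least 10 counts in every library. The counts ran from 2 to 4 for genotype and from 1 to 4 for IR as libraries were left out. The interaction count was 0 in all settings.

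The libraries share replicate letters, but no source says that a letter marks a shared day or culture. Deviations of same-letter libraries from their group means correlated at r = 0.149 and 0.547 between genotypes and at -0.33 and -0.42 between treatments. With the letter as a replicate block, the called collagens were 4 instead of 2 between genotypes after IR, and no other count moved by over 1.5 times. Over all genes that comparison called 541 with the block, 506 without a filter, 280 with DESeq2 and 182 as reported.

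Most fits that left out a library lost the calls of COL13A1 in untreated cells and of COL5A1 and COL5A2 after IR in control cells. These fits used the other 7 libraries, whereas each main pairwise fit used only those of its own comparison. The left-out library and the change of fit therefore cannot be told apart. With all 8 libraries in 1 fit, COL13A1 and COL5A2 already missed the threshold (adjusted p = 0.0507 and 0.0542 from edgeR). COL5A1 kept its call there (adjusted p = 0.0216 from edgeR). With 2 libraries a group, low genes are the least certain. COL5A1, COL11A2 and COL5A3 rest on at most 41 counts in a library. Upper-quartile normalization moved the summed type VI level of untreated cells from 133 to 136 CPM in control and from 155 to 157 CPM in RBM6-KO1 cells, more than the small spread of these replicates.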
